A study of Mus musculus with 2 samples.

Results

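Bone morphogenetic protein (BMP) ligands and receptors were examined in the mouse ureter, the muscular tube that carries urine from kidney to bladder. The set comprised 10 genes. The 6 ligands were Bmp4, Bmp2, Bmp5, Bmp6, Bmp7 and Gdf6, and the 4 receptors were Bmpr1a, Bmpr1b, Acvr1 and Bmpr2. They were taken as every probe other than array controls whose gene name on the array is one of these symbols, which gave 13 of 39429 probes. Of these 13 probes, 12 were well above background, by the scanner software's own mark, in all 4 channels. Where a gene had more than 1 usable probe the brightest was taken, and all 10 genes entered the fit among 21977 genes kept.

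Total RNA of ureters dissected at E14.5 (embryonic day) was hybridised to 2 two-colour arrays, each holding 1 Bmp4cKO RNA beside 1 control RNA. The Bmp4cKO embryos were Tbx18(cre/+);Bmp4(fl/fl), with a cre-carrying Tbx18 allele and both Bmp4 alleles floxed. The controls were Tbx18(+/+);Bmp4(fl/?), without cre, with at least 1 floxed Bmp4 allele and the other allele not stated. All embryos were of strain NMRI. Replicate 1 bears a female label for both of its RNAs, with AlexaFluor555 (green) on the Bmp4cKO RNA and AlexaFluor647 (red) on the control RNA. Replicate 2 bears a male label for both, with AlexaFluor647 on the Bmp4cKO RNA and AlexaFluor555 on the control RNA. Cre acts only in cells that express or once expressed Tbx18, chiefly the ureteric mesenchyme, so other cells keep their Bmp4 alleles, and the Bmp4cKO embryos have 1 cre-free Tbx18 allele where the controls have 2. The labels do not state how many embryos went into an RNA.

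BMPs are secreted dimers of the TGF-beta superfamily. They bring together type I receptors, here Bmpr1a, Bmpr1b and Acvr1, and type II receptors, here Bmpr2, and the activated type I kinase phosphorylates SMAD1, SMAD5 and SMAD9, which enter the nucleus with SMAD4 and switch on genes such as the Id family. In the developing ureter Bmp4 comes from the mesenchyme around the epithelial tube and is known to be needed for smooth muscle and urothelial differentiation.

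The probes of the genes with more than 1 probe, and the probe of Bmp2, are shown first because the ratios below are read from them. Positions are those of mouse build mm9 in the array's annotation. Each line gives bases 31 to 60 of a probe of 60 bases, 5′ to 3′ as listed on the array, and capitals mark the hexamer AATAAA, the canonical polyadenylation signal.
Bmp4, brighter probe: tccctatagctggacttttatcttaaaaaa
Bmp4, dim probe: gaaAATAAAatgagtcattattttaaagat
Bmp2: ctaAATAAAatataatatttcttctttatt
Bmpr1b, brighter probe: caaatgaaaagcagttaaacagtgtgtatg
Bmpr1b, second probe: tgggtaacttgttcaagatatgatgcatgt
Acvr1, brighter probe: aattatccattacgtgcatttaaactctgc
Acvr1, second probe: gcgggtctcctagacactccccacgggaag
The Bmp4 probes lie on the minus strand at chr14:47003391-47003450 and chr14:47003198-47003257, with 133 bases between them. The Bmp2 probe lies on the plus strand at chr2:133388260-133388319. The Bmpr1b probes lie on the minus strand at chr3:141500694-141500753 and chr3:141503374-141503433, and the Acvr1 probes on the minus strand at chr2:58298937-58298996 and chr2:58299580-58299639. AATAAA occurred in 2 of the 13 probes, against 12.6% of all probes on the array, and its reverse complement TTTATT in 1 of the 13, the Bmp2 probe, against 4.03% of all probes. G and C made up 15% of the dim Bmp4 probe, a share at or under which 0.0609% of all probes fell, and 38.3% of the brighter one, against a median of 41.7% over the array.

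The other probes lie at chr9:75746444-75746503 (Bmp5, plus strand), chr13:38591479-38591538 (Bmp6, plus), chr2:172695203-172695262 (Bmp7, minus), chr4:9789396-9789455 (Gdf6, plus), chr14:35224339-35224398 (Bmpr1a, minus) and chr1:59927276-59927335 (Bmpr2, plus). Which exon or untranslated region a probe covers, and whether a Bmp4 probe lies in the floxed stretch, was not given in any source used.

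Bmp4, the targeted ligand, ran against the label. Signals below are processed signals, the brightness of a probe after the scanner software had removed background and balanced the dyes, in arbitrary units, while log2 ratios come from a separate normalization of the raw spots. Its processed signal was 29491 and 27393 in the RNAs labelled Bmp4cKO of replicates 1 and 2, against 3613 and 1973 in the RNAs labelled control. Both RNAs labelled Bmp4cKO were far above both labelled control, and the groups did not overlap. The log2 ratio of labelled Bmp4cKO over labelled control was 3.04 and 3.71 on the 2 arrays, with a mean of 3.38 ± 0.48 (SD over 2 arrays), or 10.4-fold, and a limma adjusted p of 0.0163. The dim Bmp4 probe did not rise well above background in any of the 4 channels, with 9.22 and 6.50 in the RNAs labelled Bmp4cKO and 5.96 and 4.83 in those labelled control, and so gives no second reading. In the authors' deposited table the brighter probe has signed folds of -8.16 and -13.9, the opposite sign. That table held the opposite sign to the dye labels in 24 of 24 ratios of the 12 bright probes. It does not itself state its direction, but both sample titles read Bmp4cKO vs control. Read in that order, the table has Bmp4 lower in Bmp4cKO on both arrays.

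The directions given here are those of the dye labels, and all of them turn round together if the labels of the 2 RNAs were exchanged on both arrays. What does not depend on the labels is whether a gene ran with Bmp4 or against it. On both arrays Bmp5 and Bmpr1a had the sign of Bmp4, while Bmp2, Bmp6, Bmp7, Gdf6, Bmpr1b and Acvr1 had the other sign, and Bmpr2 had a different sign on each array.

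Other label checks touch the same RNAs. Tbx18, the T-box gene of ureteric mesenchyme that carries cre in the Bmp4cKO genotype, had signals of 5076 and 5851 in the RNAs labelled Bmp4cKO and of 2603 and 2875 in those labelled control. The RNA labelled Bmp4cKO was the higher one on each array, by 0.97 ± 0.17 on the log2 scale (SD over 2 arrays, limma adjusted p = 0.0398). The signals of Ddx3y and Eif2s3y, genes of the Y chromosome, were well above background only in the RNA labelled control of replicate 2, at 2720 and 2741. Xist, which is made from the inactive X chromosome, had 2348 and 2120 in the RNAs labelled Bmp4cKO, and 2794 and 85.2 in those labelled control on its brighter probe. The RNA labelled Bmp4cKO of replicate 2 thus lacked the signals its male label calls for. The 2 RNAs of replicate 2 therefore differed in sex-linked signals as well as in genotype label. Within that array the 2 differences cannot be told apart. The ratios of replicate 1 alone, given for each ligand and receptor of the set, are those without replicate 2. For most other genes only the mean over both arrays is given, which includes replicate 2.

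Across the array 1.91% of genes were called at a limma adjusted p under 0.05, with 0.887% higher in the RNA labelled Bmp4cKO and 1.02% lower. The smallest called change was 0.80 on the log2 scale, and the median SD between arrays was 0.13. Of the 10 BMP ligands and receptors 1 was called higher, Bmp4, and 1 was called lower, Bmp2, and at an unadjusted p under 0.05 there were 2 higher and 5 lower. Over all genes 7.15% were higher and 7.37% lower at that unadjusted threshold, the shares beside which the unadjusted counts below stand. Without the call on Bmp4, the gene that was targeted, 1 of 9 remained. Processed signals of the labels did not overlap for 8 of the 10 genes, all but Acvr1 and Bmpr2, against 34% of all genes. Of the 10 genes 3 lay above 0 on both arrays, against 28.2% of all genes, and 6 lay below 0 on both, against 30.6%. The median over the 10 genes was -0.69 on the log2 scale, beside -0.01 over all genes. The pathway's genes were chosen with results of these data known, so these counts describe the set and do not test it.

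**Figure D1:**
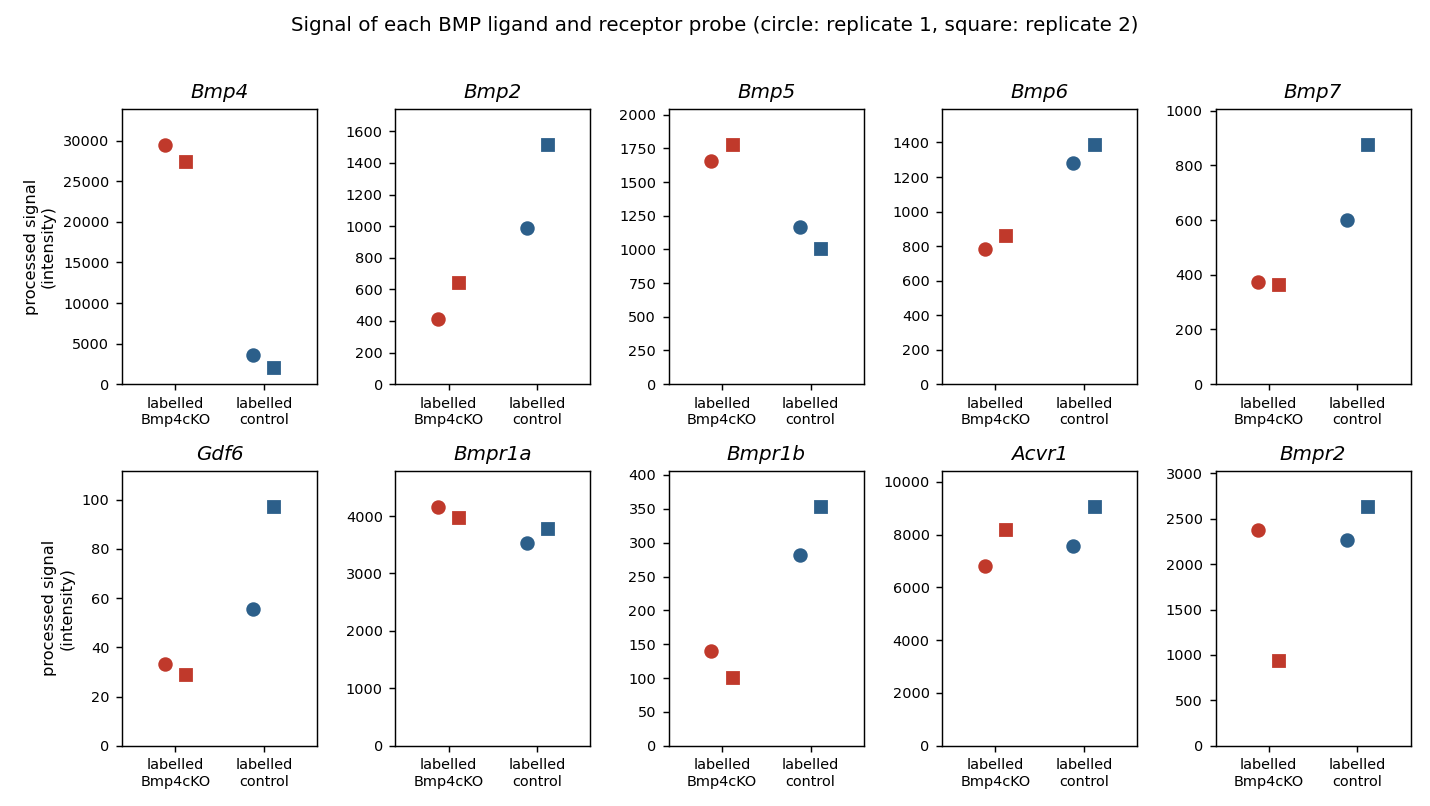
Processed signal (arbitrary intensity units, linear axes from 0) of each BMP ligand and receptor in the 4 RNAs, with RNAs labelled Bmp4cKO left of those labelled control; circles are replicate 1 and squares replicate 2, and signals of different genes come from different probes and are not comparable. The points of the 2 labels lie apart for 8 genes, widest for Bmp4, and overlap for Acvr1 and Bmpr2.

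Bmp2 forms with Bmp4 the closest pair among the ligands, and the 2 proteins bind the same receptors. Its signal was 413 and 638 in the RNAs labelled Bmp4cKO, against 987 and 1514 in those labelled control. Both control-labelled values were above both labelled Bmp4cKO, although the signals of each label differed between the arrays. The log2 ratio was almost the same on each array, at -1.23 and -1.21, opposite in sign to Bmp4. Bmp2 was lower in the RNA labelled Bmp4cKO by 1.22 ± 0.02 on the log2 scale (SD over 2 arrays). This is 2.33-fold (limma adjusted p = 0.0232, lower on 2 of 2 arrays). The 95% interval of its log2 ratio was -1.52 to -0.93. Among all genes 141 had a lower mean ratio.

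Bmp5, Bmp6 and Bmp7 make up another subgroup of the family, with a preference for Acvr1 among type I receptors. Bmp5 gave 1660 and 1776 in the RNAs labelled Bmp4cKO, against 1169 and 1005 in those labelled control. Among the 6 ligands of the set it was the only one besides Bmp4 whose 2 values labelled Bmp4cKO exceeded both control-labelled ones. The further BMP and GDF ligands described below are not counted in this. The log2 ratio of 0.46 and 0.85 averaged 0.65 ± 0.28 (SD over 2 arrays), or 1.57-fold, with a 95% interval of 0.28 to 1.02 and a limma adjusted p of 0.121, which did not pass.

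Bmp7, a ligand known from the upkeep of nephron progenitors in the kidney, had signals of 373 and 362 in the RNAs labelled Bmp4cKO, against 599 and 875 in those labelled control. Both values labelled Bmp4cKO were the lower ones, and the control-labelled values lay further apart. The log2 ratio of -0.74 and -1.17 averaged -0.95 ± 0.31 (SD over 2 arrays), a ratio of 1.93-fold, with a 95% interval of -1.34 to -0.57 and a limma adjusted p of 0.0582, which did not pass. This call depends on the fit: the adjusted p was 0.0436 after plain background subtraction, 0.0443 with a robust prior, 0.0134 with an intensity trend in the prior and 0.0435 in a separate-channel fit.

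Bmp6 had 785 and 858 in the RNAs labelled Bmp4cKO, against 1284 and 1386 in those labelled control. The labels were again apart, with close values within each. The ratio of Bmp6 was -0.70 and -0.64 on the log2 scale, a mean of -0.67 ± 0.04 (SD over 2 arrays), and the limma adjusted p of 0.0679 did not pass.

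Gdf6 belongs to the subgroup of Gdf5 and Gdf7, known from joint formation. Its signal was 33.2 and 28.8 in the RNAs labelled Bmp4cKO, against 55.4 and 97.1 in those labelled control. The labels did not overlap, and the spread lay in the control-labelled RNAs. Its log2 ratio of -0.41 and -0.99 averaged -0.70 ± 0.40 (SD over 2 arrays, limma adjusted p = 0.149), and -1.25 when the scanner software's processed signals were used.

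The question which ligand could stand in for Bmp4 was taken up here as which ligand's transcript ran against Bmp4. Of the 5 other ligands 4 did so on both arrays, and 1 of the 4, Bmp2, passed the test. In the direction of the dye labels these 4 had negative ratios where that of Bmp4 was positive, and with the labels exchanged they would have positive ratios where that of Bmp4 was negative. The median over all 5 was -0.70 on replicate 1 and -0.99 on replicate 2. RNA ratios do not show whether any of these ligands acts in place of Bmp4.

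**Figure D2:**
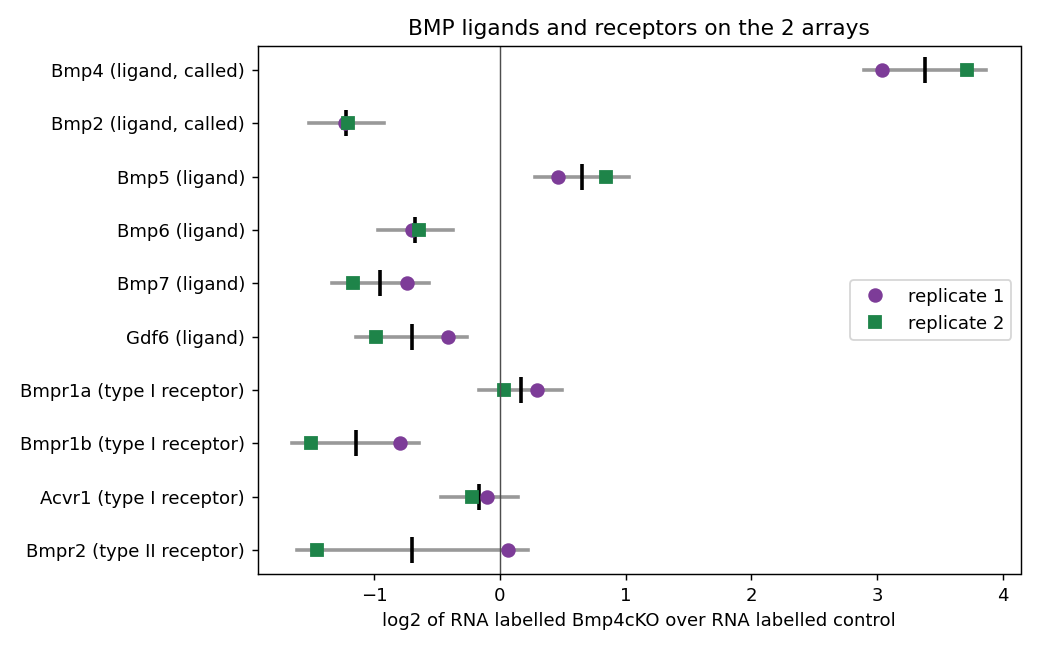
Log2 ratio, labelled Bmp4cKO over labelled control, for the 10 genes, with a circle for replicate 1, a square for replicate 2, a bar at the mean and a grey line for the 95% interval from limma. Bmp4 lies near 3.38 and Bmp2 near -1.22, the intervals of Bmpr1a, Acvr1 and Bmpr2 include 0, and the 2 arrays lie furthest apart for Bmpr2.

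Among type I receptors, Bmpr1a, the receptor through which most tissues receive Bmp2 and Bmp4, gave 4164 and 3958 in the RNAs labelled Bmp4cKO, against 3526 and 3775 in those labelled control. The labels did not overlap, but the gap was narrow. Its log2 ratio was 0.29 and 0.03, a mean of 0.16 ± 0.18 (SD over 2 arrays), and the 95% interval reached from -0.17 to 0.49 (limma adjusted p = 0.690). A difference of either sign within that interval cannot be told from none.

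Acvr1, the type I receptor that Bmp5, Bmp6 and Bmp7 favour, had 6814 and 8190 in the RNAs labelled Bmp4cKO and 7575 and 9057 in those labelled control. The labels overlapped. Its log2 ratio of -0.10 and -0.23 averaged -0.16 ± 0.09 (SD over 2 arrays), with a 95% interval of -0.47 to 0.14 and a limma adjusted p of 0.653. The second Acvr1 probe, which differs from the first in base composition as the printed stretches show, gave a mean of -0.20.

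Bmpr1b, a type I receptor best known from cartilage, had the most negative ratio of the receptors. Its brighter probe gave 140 and 99.7 in the RNAs labelled Bmp4cKO, against 282 and 353 in those labelled control. Both values labelled Bmp4cKO were lower than both others. The log2 ratio of -0.79 and -1.50 averaged -1.15 ± 0.50 (SD over 2 arrays), a ratio of 2.22-fold, and did not pass (limma adjusted p = 0.0675, lower on 2 of 2 arrays). The second Bmpr1b probe, 2620 bases away, ran the same way, at 42.2 and 39.4 in the RNAs labelled Bmp4cKO, against 90.3 and 110 in those labelled control. Its mean was -0.72. Bmpr1b passed in 3 other settings, with an adjusted p of 0.0464 after plain background subtraction, 0.0131 with an intensity trend and 0.0211 in a separate-channel fit.

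Bmpr2, the type II receptor dedicated to BMPs, differed between the arrays. It had 2376 and 934 in the RNAs labelled Bmp4cKO, against 2262 and 2632 in those labelled control, and 3 of the 4 values lay close together. The low value was the RNA labelled Bmp4cKO of replicate 2. The log2 ratio of Bmpr2 was 0.06 on replicate 1 and -1.46 on replicate 2, so that the mean of -0.70 ± 1.07 (SD over 2 arrays, limma adjusted p = 0.490) stands for neither array.

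All 4 receptors were detected in every channel of the E14.5 ureter RNA. Which of them was the most abundant cannot be read from these arrays, because the brightness of a probe depends on its sequence as well as on its transcript, and no order of the receptors is given. The plain statement the data allow is that limma called 0 receptors in either direction, with 0 higher and 1 lower of 4 at an unadjusted p under 0.05 (7.37% of all genes were lower), and that the median over the 4 was -0.02 on replicate 1 and -0.84 on replicate 2.

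**Figure D3:**
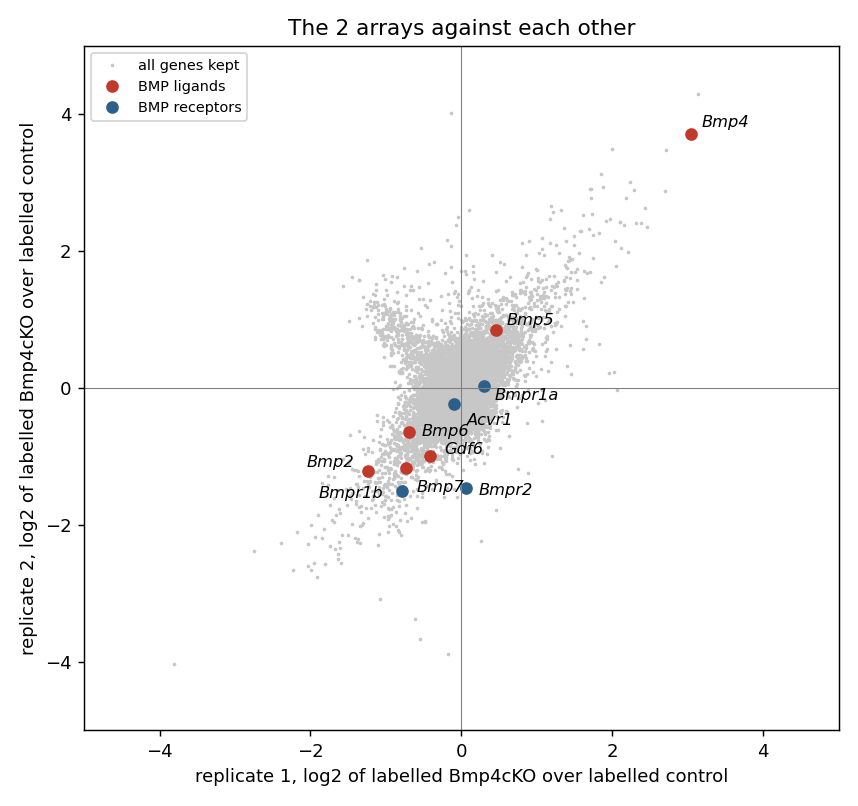
Log2 ratio on replicate 2 against that on replicate 1, with grey points for all 21977 genes kept, red for BMP ligands and blue for BMP receptors. Bmp4 stands at the far upper right with 3.04 and 3.71, 4 ligands and Bmpr1b at the lower left, and Bmpr2 below the others near 0 on replicate 1 and -1.46 on replicate 2.

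The genes whose pair of ratios lay nearest to that of Bmp4 were Car3 (straight-line distance 0.394 over the 2 arrays, log2 ratios 2.72 and 3.49), Upk1b (0.589, mean 3.72) and Rab27b (0.905, mean 2.79). Upk1b, a uroplakin of the urothelial surface, was the 1 gene with a higher mean ratio than Bmp4. Nearest to Bmp2 were Ret, the GDNF receptor of the ureteric bud tip, at a distance of 0.0485 and a mean of -1.20, and Slc9a2, at 0.0766 and -1.27. The next, at 0.0805, was an Ensembl transcript with no gene name in the tables used. With 2 arrays a short distance says only that 2 pairs of values are alike.

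The remaining pathway genes were described from lists, read against the same shares of all genes. BMP target genes lay on the side of Bmp4: of 11 listed 10 were kept, all 10 were above 0 on both arrays, and 3 were called higher and 0 lower (7 and 0 at an unadjusted p under 0.05). Their median was 0.81, beside -0.01 over all genes. Msx2, a homeobox target, had 531 and 1071 in the RNAs labelled Bmp4cKO, against 183 and 182 in those labelled control. The labels were far apart, with a mean log2 ratio of 1.85 ± 0.69 (SD over 2 arrays, limma adjusted p = 0.0411). Id4, an inhibitor of basic helix-loop-helix factors, was higher in the RNA labelled Bmp4cKO by 1.11 ± 0.20 (limma adjusted p = 0.0349) on the same scale. Smad6, the feedback inhibitor of BMP receptors, was higher there by 0.90 ± 0.09 (limma adjusted p = 0.0405). Bambi, also listed, was not kept.

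Of the 8 SMAD pathway genes 2 were called higher and 0 lower (3 and 0 at an unadjusted p under 0.05), with a median of 0.15. Besides Smad6 this was Smad9, one of the SMADs that the type I receptors phosphorylate, with 449 and 632 in the RNAs labelled Bmp4cKO and 176 and 248 in those labelled control. Its values did not overlap, and its log2 ratio was 1.18 ± 0.09 (SD over 2 arrays, limma adjusted p = 0.0262).

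Of 14 further BMP and GDF ligands 10 were kept, 0 were called higher and 1 lower, Gdf7 (2 and 2 at an unadjusted p under 0.05), and their median was -0.10. Gdf7, like Gdf6 a member of the Gdf5 subgroup, had 39.7 and 36.8 in the RNAs labelled Bmp4cKO, against 110 and 94.2 in those labelled control. The labels did not overlap. Gdf7 was lower in the RNA labelled Bmp4cKO by 0.90 ± 0.05 on the log2 scale (SD over 2 arrays, limma adjusted p = 0.0390). Its second probe ran the same way at -1.56.

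Of 11 other receptors and co-receptors 9 were kept and limma called 0 (1 higher and 0 lower at an unadjusted p under 0.05), with a median of 0.06. The widest ratios were those of Neo1, a receptor for repulsive guidance molecules, at -0.35 ± 0.48 (adjusted p = 0.521), and of Acvr2a, an activin and BMP type II receptor, at 0.32 ± 0.03 (adjusted p = 0.309). A second Acvr2a probe gave a mean of only 0.07. Of 7 proteases that process ligands or their antagonists 6 were kept and limma called 0, also 0 at an unadjusted p under 0.05, with a median of -0.05. Bmp1, which despite its name is a metalloprotease that cleaves chordin and procollagens, had -0.35 ± 0.28 (adjusted p = 0.370), and the proprotein convertase Pcsk5 -0.25 ± 0.09 (adjusted p = 0.453). Other probes of Bmp1 gave -0.26 and -0.15. For Tll1, also listed, the brighter probe gave -0.10 and a second probe -0.72.

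**Figure D4:**
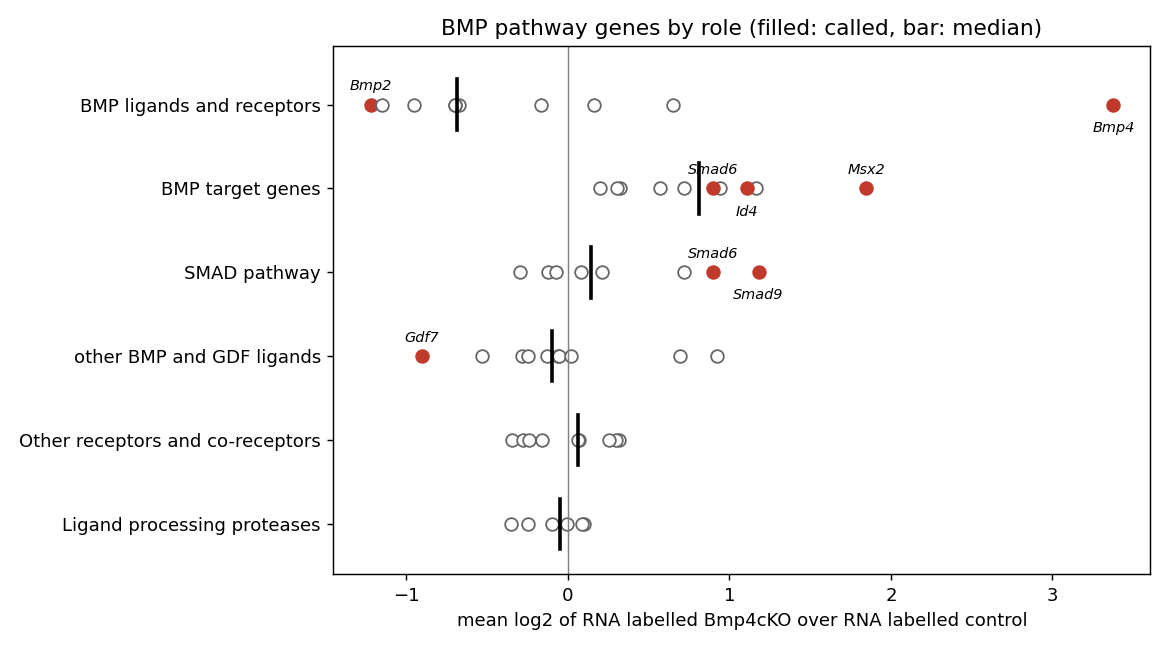
Mean log2 ratio of labelled Bmp4cKO over labelled control for the genes of each list, with filled points for called genes, open points for the rest and a bar at each list's median. BMP target genes all lie above 0 with a median of 0.81, while the 10 ligands and receptors have a median of -0.69 with Bmp4 alone on the far right.

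Markers of the cell types a dissected ureter can hold differed between the labels as well. Most kidney markers, not all, ran with Bmp2. All 11 were kept, 5 were called lower and 0 higher (6 and 1 at an unadjusted p under 0.05), with a median of -0.78. Of the 11, 8 lay below 0 on both arrays, against 30.6% of all genes. Cited1 lay above 0 on both (0.65 and 0.37), and Six2 (1.21 and -0.99) and Aqp2 changed sign. The summed signal of the list was 19602 and 24585 in the RNAs labelled Bmp4cKO, against 23826 and 33049 in those labelled control, and the sums overlapped. Ret, the nearest neighbour of Bmp2, is one of the 5. All 6 neuronal and Schwann cell markers lay below 0 on both arrays and 3 were called lower, with sums of 3721 and 3565 in the RNAs labelled Bmp4cKO and 5077 and 5279 in those labelled control.

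Most urothelial markers ran with Bmp4. Of 11 kept, 9 lay above 0 on both arrays, against 28.2% of all genes, and 2 changed sign. In this list 5 were called higher and 0 lower (8 and 0 at an unadjusted p under 0.05), with a median of 0.67. Their sums were 79191 and 81452 in the RNAs labelled Bmp4cKO, against 41076 and 48285 in those labelled control. Of 8 markers of ureteric mesenchyme and smooth muscle 4 were called higher and 0 lower (6 and 0 at an unadjusted p under 0.05), with sums of 84088 and 90747 in the RNAs labelled Bmp4cKO and 54424 and 62515 in those labelled control. All markers of these 4 lists were well above background in every channel, and none was at 0. Kidney and neuronal markers were among them, and 26300 of the 39429 probes on the array met the same mark. Detection therefore does not test the tissue label. All 6 endothelial markers were above 0 on both arrays and limma called 0 of them, with 4 at an unadjusted p under 0.05. Of 5 blood and macrophage markers limma called 0, with 1 lower at an unadjusted p under 0.05. Of 4 skeletal muscle and fat markers kept, 1 was called higher, Actc1 at 1.11 ± 0.31 (adjusted p = 0.0419), and 1 lower, Myog at -0.89 ± 0.01 (adjusted p = 0.0391), both named after their values were seen. The medians of these 2 lists had a different sign on each array. The part of these markers in the ratios of the ligands and receptors was not tested, and in such bulk RNA fewer cells of a type and less RNA per cell cannot be told apart.

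How far the calls depend on the fit is shown by the adjusted p of each gene over 12 alternative settings. Bmp4 and Bmp2 passed in 10 of the 12 each. Both failed when the arrays were only centred on their median, with adjusted p of 0.296 for each, and when no normalization was applied, with 0.285 for Bmp4 and 1.00 for Bmp2. The log2 ratios themselves hardly moved, between 3.36 and 3.41 for Bmp4 and between -1.26 and -1.21 for Bmp2. Bmpr1a, Acvr1 and Bmpr2 passed in none of the 12.

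**Figure D5:**
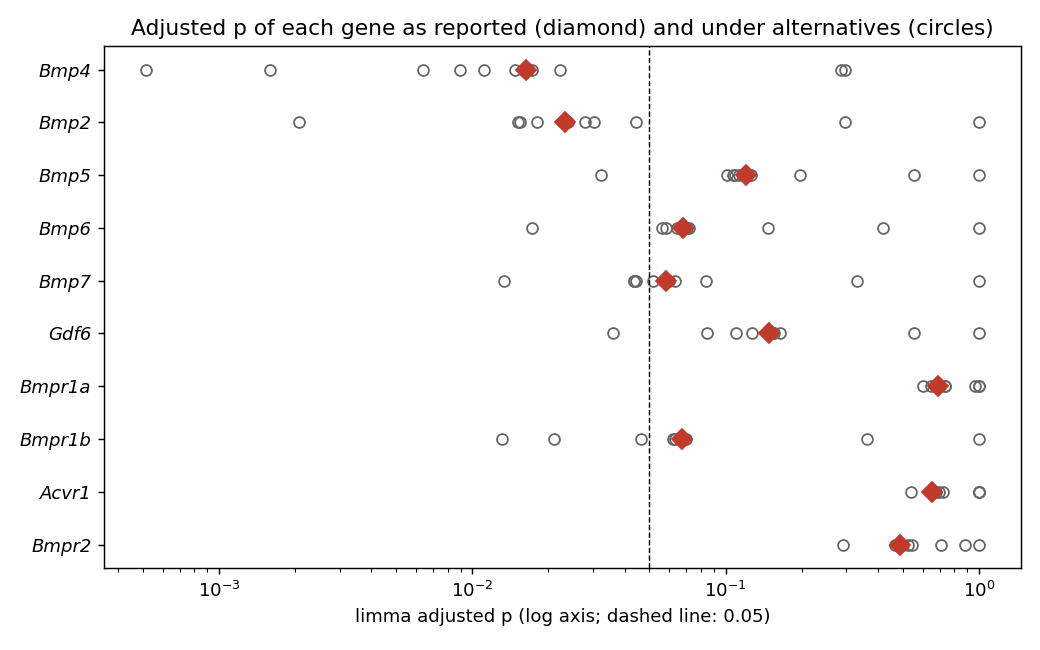
Limma adjusted p (log axis) of each BMP ligand and receptor as reported (diamond) and under 12 alternative settings (circles) of background correction, normalization, filter, probe choice, prior and design, with the threshold of 0.05 as a dashed line. Bmp4 and Bmp2 lie past the threshold in 10 alternatives each, Bmp7 in 4, Bmpr1b in 3, Bmp5, Bmp6 and Gdf6 in 1 each, and Bmpr1a, Acvr1 and Bmpr2 in none.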

How the data were processed

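Per the file headers, the authors quantified the arrays with Agilent Feature Extraction 10.7.3.1. Spot and local background brightness are deposited as linear intensities, next to processed intensities, which the headers describe as detrended and dye-normalized. A log ratio is also deposited, as log10 of the red processed signal divided by the green. The score in the authors' table was found to be a signed fold. In size it matched the scanner's log ratio to 0.01 (log2) or better for 99.6% and 99.5% of 26300 probes on replicates 1 and 2, and each column's median was 1. Its sign was that of red over green on replicate 1 and the reverse on replicate 2. On both arrays this is the reverse of the dye labels. The sample titles read Bmp4cKO vs control, and the table itself does not state its direction.

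Red over green was computed with normexp (offset 50) on mean signal and local background median, then by loess within arrays (limma 3.58.1, R 4.3.3), where control spots had weight 0. The offset draws the ratios of dim probes towards 0. Ratios were turned by the dye labels, and each array held both RNAs, so that a ratio is also the value within a slide and scan. Probes were kept where well above background in both channels of 1 genotype label. No probe spot was saturated, 231 and 235 outlier spots were left out, and 69.3% to 74.6% of probe spots were well above background per channel. Of 39429 probes 31001 took their name from a RefSeq table (GRCm38.p6, used for nothing else), and 8428 have that of the array. The fit used lmFit and eBayes with Benjamini-Hochberg adjustment over 21977 genes. Each test had 1 residual and 4.03 prior degrees of freedom, and the 2 arrays limit the precision. P-values rest on the spread between these 2 arrays, pooled with a prior variance drawn from all genes. For Bmp2 the SD between arrays was 0.02, while the standard error used was 0.12. No other spread is measured, and separate litters are not stated for the 2 arrays.

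Genes named are every ligand and receptor of the set, the called genes of each list (at most 4, or the 2 widest ratios where none was called), the label checks and the 3 nearest neighbours of Bmp4 and of Bmp2. A further list, and a gene this rule takes from it, is not reported here. Members and lists were chosen with earlier results of these data known. On simulated data with 21977 genes the fit recovered 67.2% of 67 genes changed by 1 on the log2 scale, 98.5% of 67 changed by 2 and 100% of 66 changed by 3.5, with 19 false calls. The alternatives were background correction, normalization, filters, probe choice, prior, a separate-channel design and leaving out each array.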

Additional observations from a re-analysis of the deposited data

Results flagged for a closer look

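Bmpr2 had ratios of opposite sign on the 2 arrays, 0.06 on replicate 1 and -1.46 on replicate 2, a difference of -1.52 on the log2 scale. The arrays differ in their sex labels and in dye orientation. Replicate 2 alone also set an RNA with Y-linked signals against 1 without them. With 1 array each the difference was not tested. The low signal, 934, was that of the RNA labelled Bmp4cKO of replicate 2, which lacked the Y-linked signals its male label calls for. The mean of red over green, in which the labels cancel, was -0.76 for Bmpr2. This value is fixed by the same 2 ratios and does not separate dye from the other differences between the arrays.

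The medians of 3 lists also changed sign between the arrays, again untested. Proteases that process ligands or their antagonists had -0.13 on replicate 1 and 0.02 on replicate 2, a difference of 0.150. Skeletal muscle and fat markers had -0.13 and 0.18, a difference of 0.316. Blood and macrophage markers had -0.76 and 0.14, a difference of 0.905.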

How the results depend on the processing

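Over 12 settings no ligand or receptor changed the sign of its mean ratio. With median centring in place of loess, and with no normalization, Bmp4 kept ratios of 3.38 and 3.36 but missed the threshold (adjusted p = 0.296 and 0.285), as did Bmp2 at -1.21 and -1.23 (0.296 and 1.00). Called genes among the 10 were then 0 in each direction, and over all genes 0 higher with both, and 0 and 1 lower. At an unadjusted p under 0.05, 1760 and 108 genes passed, beside 3191 in the fit as reported. An intensity trend in the prior added calls on Bmp5 at 0.65 (adjusted p = 0.0323), Bmp6 at -0.67 (0.0173), Bmp7 at -0.95 (0.0134), Gdf6 at -0.70 (0.0360) and Bmpr1b at -1.15 (0.0131), which gave 2 higher and 5 lower among the 10, and 611 higher and 671 lower over all genes. Plain background subtraction added Bmp7 at -0.99 (0.0436) and Bmpr1b at -1.32 (0.0464), for 3 lower, and 339 higher and 388 lower over all genes. A robust prior added Bmp7 at -0.95 (0.0443), for 2 lower. A separate-channel fit with a dye term and no replicate block added Bmp7 at -0.95 (0.0435) and Bmpr1b at -1.15 (0.0211), for 3 lower. The cause was not tested. The planned fit with the arrays as a replicate block beside the dye term was not run, because 2 arrays leave it no residual degree of freedom. The fit as reported is itself paired, since each ratio sets the 2 RNAs of 1 array against each other. Leaving out either array leaves 1, which gives the ratios printed for the other array and no test, so that Bmpr2 is 0.06 without replicate 2 and -1.46 without replicate 1.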
